A study of Mus musculus with 15 samples.

Results

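Kidney RNA was compared between sham-operated mice on a high-fat diet and sham-operated mice on a low-fat chow diet. The comparison was made by the array titles and took in 7 of the 15 arrays of the study, 3 of high-fat sham mice and 4 of low-fat sham mice, each array from a separate mouse. All were male C57/BJ mice, assigned at 6 weeks of age to removal of the left kidney (uninephrectomy) or to a sham operation in which the kidney was handled and left in place, and killed 20 weeks after surgery. The labels state 6 mice per group, so not every mouse is represented. The remaining 8 arrays, 4 per diet, came from mice with 1 kidney and are used here for the shared estimate of the spread and for values set side by side. The labels give no fat content of the diet, no body weight and no blood values, so the degree of obesity of these mice is not known from them.

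The proximal tubule takes back filtered glucose, phosphate and amino acids, burns fatty acids as its main fuel and makes glucose from lactate and glutamine. Long high-fat feeding of mice of this strain background is widely used to model obesity and insulin resistance, and fatty acids act on the kidney in part through PPAR-alpha, a nuclear receptor that turns on genes of fatty acid oxidation. The later segments of the tubule set the final sodium, potassium and acid content of the urine under the control of aldosterone.

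The 43020 non-control spots of each array gave a background-subtracted intensity, and values below are log2 of that signal minus the array's 75th percentile (normalised log2 signal). Between 60.7% and 64.4% of spots were well above background on the low-fat sham arrays and between 65.7% and 73.4% on the high-fat sham arrays. The 75th percentile itself ran from 1347 to 1844 on low-fat and from 669 to 3275 on high-fat sham arrays. Scan day coincided with diet: the high-fat arrays of the study were scanned on scan day 1 (high-fat sham replicate 1 on slide 1, replicates 2 and 3 on slide 2) and the low-fat arrays on scan day 2 (low-fat sham on slide 3). Diet and scan day therefore cannot be told apart in any result below. The labelled tissue was checked on its markers: the 20 proximal tubule markers had a median signal at percentile 97.17 of the tested genes, and the 20 proximal tubule, 12 thick ascending limb, 14 distal convoluted tubule and 13 intercalated cell markers measured were each well above background on all 7 sham arrays. In whole-kidney RNA, fewer cells of a type and less RNA per cell cannot be told apart.

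Of 16032 genes tested, 2221 (13.9%) differed between the diets in sham mice at an adjusted p under 0.05 (limma, Benjamini-Hochberg, two-sided), 1040 of them (6.49%) higher and 1181 (7.37%) lower on the high-fat diet. The direction followed the signal level. Among the 1604 genes of lowest mean signal (the bottom 10%) 13.84% of genes passed higher and 3.491% passed lower, and in the top 10% 2.246% passed higher (36 of 1603 genes) and 11.92% passed lower (191 genes). The median log2 difference fell from 0.22 in the bottom 10% to -0.13 in the top 10%, against -0.02 over all genes. Of the 1040 genes that were higher, 342 were not well above background on each of the 4 low-fat sham arrays. The values of the high-fat and low-fat arrays did not overlap for 2093 of the 2221 genes, and for 26.2% of all genes tested. Fewer genes passed without high-fat sham replicate 2 (1207) or low-fat sham replicate 3 (1212), replicate 1 (1392) or replicate 2 (1404), 195 passed with normexp background correction (60 higher and 135 lower), and 14 passed when the slide entered the fit as a random block. Of the 189 named genes that passed, 76 also passed in each of the 7 fits that left out 1 sham array, 23 lost the call in 1 or 2 of them and 90 in 3 or more. Genes given below without a word on arrays left out may belong to any of these sets.

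**Figure D1:**
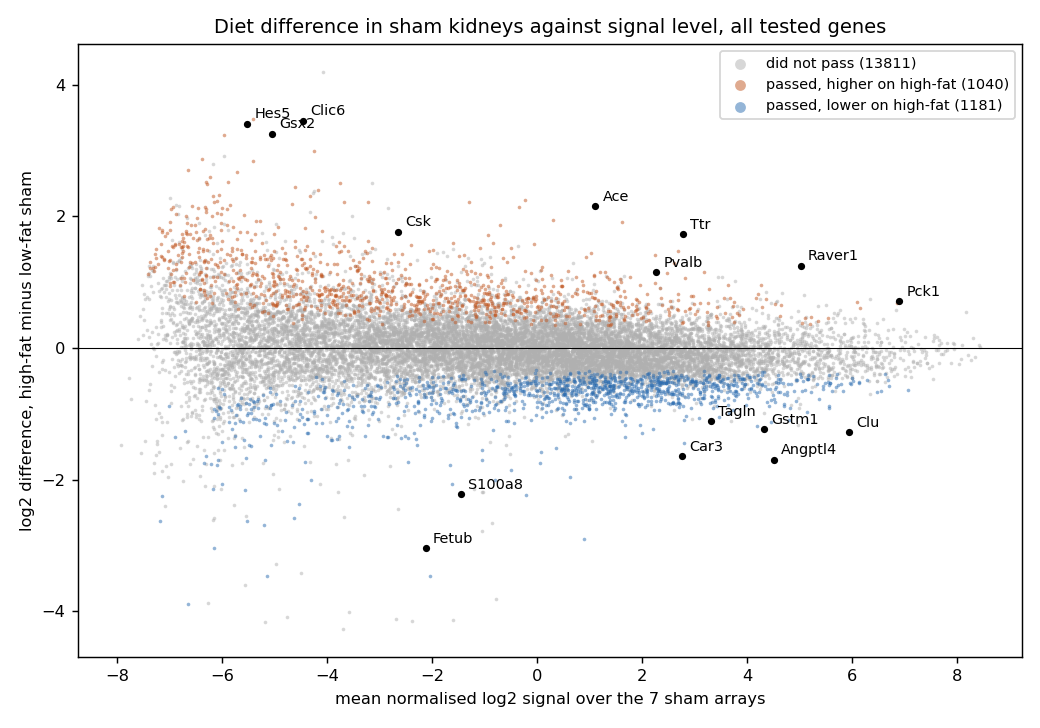
Each point is 1 of the 16032 tested genes, with its mean normalised log2 signal over the 7 sham arrays on the horizontal axis and its log2 difference, high-fat minus low-fat sham, on the vertical axis; colours mark the 1040 genes that passed higher and the 1181 that passed lower, and black points are genes named in the text. Higher genes crowd at low signal and lower genes at middle and high signal.

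Among abundant genes the decreases led. Car3, which encodes carbonic anhydrase 3 and is strongly expressed in fat and muscle, was at 3.41, 3.36, 3.33 and 3.72 on low-fat sham replicates 1 to 4 and at 1.95, 1.73 and 1.75 on high-fat sham replicates 1 to 3. The groups lay far apart and each was tight, and the difference was -1.64 ± 0.14 (standard error; adjusted p = 7.56e-05). Car3 was the one lower gene of the 14 that passed with the slide as a random block (-1.65, adjusted p = 0.0171). Angptl4, a fasting-induced inhibitor of lipoprotein lipase and a PPAR target, was at 4.67, 5.63, 5.58 and 5.07 on the low-fat and at 3.71, 3.16 and 3.75 on the high-fat arrays, a difference of -1.70 ± 0.26 (adjusted p = 0.00219). Clu, the secreted chaperone clusterin, which tubules make after injury, was at 6.62, 6.32, 6.48 and 6.50 against 5.59, 5.08 and 4.94. For Angptl4 and Clu no high-fat array reached the lowest low-fat array, and Clu fell by 1.28 ± 0.21 (adjusted p = 0.00293). Pclaf, a PCNA-associated factor of replicating cells, fell by 1.05 (adjusted p = 0.00243), and Aebp1, an extracellular collagen-binding protein, by 0.99 (adjusted p = 0.00554). Wbp1 fell by 0.94 and Mtif2, a mitochondrial translation initiation factor, by 0.98 (adjusted p = 0.00294 and 0.00293). These 7 genes passed in each fit that left out 1 of the 7 sham arrays; the highest adjusted p was 0.0208, for Aebp1. With the slide as a random block the adjusted p of the 6 other than Car3 lay between 0.112 and 0.168.

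**Figure D2:**
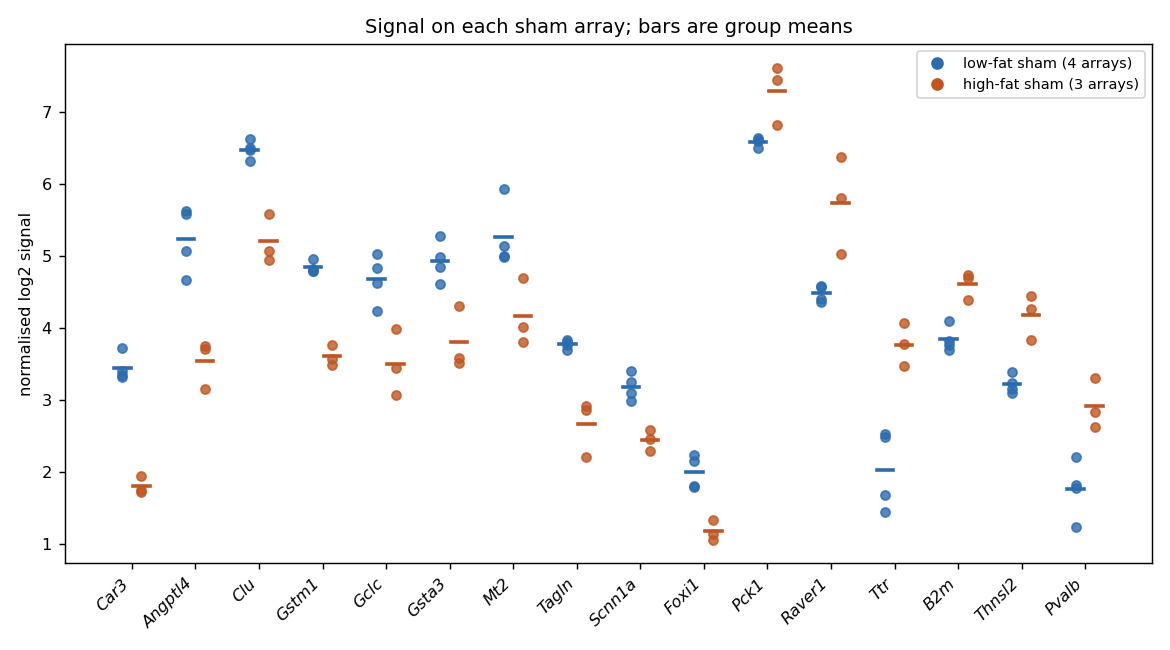
Normalised log2 signal of 16 named genes on each of the 4 low-fat (blue) and 3 high-fat (orange) sham arrays, with a bar at each group mean. For each of the 16 genes the groups did not overlap; the points of Car3 and Gstm1 lie close within each diet, and those of Raver1 on the high-fat and Ttr on the low-fat diet spread over more than 1 log2 unit.

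Genes of glutathione metabolism, which protect tubule cells from electrophiles and peroxides and many of which are targets of the transcription factor NRF2, passed lower in 6 of 36 measured members (16.7%) and higher in 1 (2.78%), with a median log2 difference of -0.11 against -0.02 over all genes. These shares are near those of all genes of like signal: the list lay at percentile 88.25 of the tested genes, and of the 1603 genes between percentiles 80 and 90 12.79% passed lower and 2.745% higher, with a median of -0.15. The counts are therefore read for the single genes and not for the list. Gstm1, a mu-class glutathione transferase, was at 4.80, 4.95, 4.83 and 4.79 on the low-fat arrays and at 3.57, 3.77 and 3.49 on the high-fat arrays. Its 2 groups did not overlap, and it fell by 1.23 ± 0.16 (adjusted p = 0.00119). Gclc, the catalytic subunit of the rate-limiting enzyme of glutathione synthesis, was at 4.83, 5.03, 4.25 and 4.63 against 3.08, 3.45 and 3.99, a decrease of 1.18 ± 0.27 (adjusted p = 0.0135). Gsta3, an alpha-class glutathione transferase, was at 4.61, 4.86, 4.99 and 5.27 against 4.30, 3.59 and 3.52. Its high-fat replicate 1 stood nearest to the low-fat range, and it fell by 1.13 ± 0.21 (adjusted p = 0.00516). These 3 genes passed without any 1 of the 7 arrays (adjusted p up to 0.0469, for Gclc). Hmox1, heme oxygenase 1, fell by 0.83, with high-fat replicate 1 (1.38) above low-fat replicate 1 (1.36), and Mgst3 and Tkt (transketolase) fell by 0.50 and 0.47. Gstm3 was the exception and rose by 1.00 (adjusted p = 0.0150), but leaving out high-fat replicate 2 ended its call (adjusted p = 0.0667), and the mean of its probes gave -0.31 (adjusted p = 0.648), its second probe having the opposite sign. A second probe of Gstm1 also differed in sign from the one used.

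Metallothioneins, small cysteine-rich proteins that bind zinc and copper and rise with metals and glucocorticoids, fell in sham mice for the 2 abundant members. Mt1 was at 6.39, 5.92, 5.61 and 5.84 on the low-fat arrays and at 5.53, 5.08 and 4.50 on the high-fat arrays. Mt2 was at 5.93, 5.14, 4.99 and 5.01 against 4.70, 4.01 and 3.80. Both genes were highest on replicate 1 within each diet, and neither pair of groups overlapped. Mt2 fell by 1.10 ± 0.29 (adjusted p = 0.0240) and Mt1, named after its values were seen, by 0.90 ± 0.26 (adjusted p = 0.0364), while the brain form Mt3 did not pass (0.31, adjusted p = 0.245). Mt2 did not pass without low-fat replicate 1 or high-fat replicate 2 or 3 (adjusted p up to 0.0797), nor Mt1 without low-fat replicate 1, 2 or 4 or high-fat replicate 2 or 3 (up to 0.119). In mice with 1 kidney the same differences were -0.23 for Mt2 and -0.21 for Mt1, and the difference between the surgeries did not pass for any gene (limma, adjusted p).

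The 250 bases before the RefSeq start of Mt1, Mt2 and Gsta3 (assembly GRCm38.p6, plus strand in each case) are shown because metal and antioxidant elements in such stretches are the known control points of these families. They were chosen after the values were seen. Capitals mark matches, on either strand, to the metal response core (TGCACNC or TGCGCNC) in Mt1 and Mt2 and to the antioxidant response core (TGACNNNGC) in Gsta3.
Mt1, chr8:94178839-94179088: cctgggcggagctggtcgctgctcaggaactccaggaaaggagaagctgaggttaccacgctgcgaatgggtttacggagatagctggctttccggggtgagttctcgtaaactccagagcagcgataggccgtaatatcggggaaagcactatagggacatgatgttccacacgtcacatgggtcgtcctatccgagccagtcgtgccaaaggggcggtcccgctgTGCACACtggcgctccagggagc
Mt2, chr8:94172368-94172617: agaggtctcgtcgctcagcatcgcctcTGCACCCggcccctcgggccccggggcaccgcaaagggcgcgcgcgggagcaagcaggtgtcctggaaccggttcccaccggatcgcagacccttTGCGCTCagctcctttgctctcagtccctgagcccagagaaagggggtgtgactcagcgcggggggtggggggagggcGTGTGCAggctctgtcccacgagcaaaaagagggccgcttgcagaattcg
Gsta3, chr1:21240335-21240584: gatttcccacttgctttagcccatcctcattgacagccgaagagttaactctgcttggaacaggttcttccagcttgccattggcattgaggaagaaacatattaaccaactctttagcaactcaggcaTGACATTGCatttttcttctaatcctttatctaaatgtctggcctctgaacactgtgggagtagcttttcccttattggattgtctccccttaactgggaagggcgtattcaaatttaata
Mt1 held 1 metal response core, starting 23 bases before the start, and Mt2 held 3, starting 223, 128 and 50 bases before it, the last on the minus strand. Of 32851 promoter windows of the same length 21.4% held at least 1 such core and 1.26% held 3 or more. Gsta3 held 1 antioxidant core, 121 bases before the start, and 10.2% of windows held at least 1. A match describes these letters and not binding in these kidneys. The counts depend on where the annotated start lies, and bases outside the 250 were not searched. They therefore do not compare the whole promoters of Mt1 and Mt2.

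Lipid genes showed scattered decreases. Of 20 measured genes of mitochondrial fatty acid oxidation 2 passed, both lower (10%, against 11.92% passing lower in the top 10% of all genes by signal, where the list's median level lay): Acadvl, the very long chain acyl-CoA dehydrogenase (-0.56, adjusted p = 0.0192), and Decr1 (-0.57, adjusted p = 0.0342), whose second probe had the opposite sign (the mean of its probes gave 0.02, adjusted p = 0.946). The list's median was 0.00, and Cpt1a, the carnitine palmitoyltransferase that admits long-chain fatty acids to mitochondria, overlapped between the diets, with a difference of 0.00 ± 0.15. Of 19 peroxisomal genes 4 passed lower (21.1%, against 11.92% in the top 10% of all genes by signal) and none higher. They were Acaa1a (-0.52), Acot8 (-0.69), Acox2 (-0.59) and Pex11a, a peroxisome division factor (-0.77), with adjusted p = 0.0128, 0.0452, 0.0211 and 0.0447. Acaa1a passed in 6 of the 7 fits with an array left out, Acox2 and Pex11a in 2 each and Acot8 in 0. Of 23 genes of the PPAR-alpha list 3 passed lower (13%, against 12.79% of all genes of like signal) and none higher. Beside Angptl4 these were Ppara itself, at 3.85, 4.09, 3.87 and 3.85 against 3.57, 3.52 and 3.44 (-0.41 ± 0.12, adjusted p = 0.0377), and Creb3l3, a liver and gut regulator of lipid genes, whose groups overlapped (-1.73 ± 0.51, adjusted p = 0.0379). Ppara passed in 1 of the 7 fits that left out an array (the one without high-fat replicate 1) and Creb3l3 in 3, with adjusted p up to 0.102 and 0.137. Other members of that list, among them Cyp4a14 (-0.23 ± 0.69), Cyp4a10 (-0.42 ± 0.35) and Pdk4 (-0.93 ± 0.52), did not pass and varied widely between mice.

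Fatty acid synthesis genes were lower in 4 of 19 measured members (21.1%, against 10.92% of all genes of like signal) and higher in none. Their median was -0.25, against -0.09 for genes of like signal. Acacb, the acetyl-CoA carboxylase at the mitochondrial surface whose product blocks entry of fatty acids, was at 1.57, 1.12, 1.02 and 1.08 on the low-fat arrays and at -0.01, 0.14 and 0.52 on the high-fat arrays. No high-fat array reached the low-fat range, and Acacb fell by 0.98 ± 0.20 (adjusted p = 0.00811; at most 0.0324 with 1 array left out). Elovl6, which lengthens palmitate to stearate, fell by 0.63 ± 0.14 (adjusted p = 0.0116), Elovl1 by 0.55 and Acaca, the cytosolic carboxylase, by 0.44. Fasn, the fatty acid synthase (0.20 ± 0.32), and Scd1, the stearoyl-CoA desaturase (-0.25 ± 0.46), did not pass, nor did their regulator Srebf1 (0.16 ± 0.19). In the sterol list of 25 genes Dhcr7, the last enzyme of cholesterol synthesis, rose by 1.31 and Stard4, a sterol carrier, fell by 0.61 (adjusted p = 0.0195 and 0.0125). Nr1h2, the oxysterol receptor LXR-beta, fell by 0.59 (adjusted p = 0.00393), and the fatty acid receptor Cd36 had a difference of 0.00 ± 0.30.

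Genes of glucose production and glucose transport rose where they passed. Of 16 measured genes 4 passed higher (25.0%, against 6.49% of all genes) and none lower, with a median of 0.08. The list's median level lay in the top 10% by signal, where 2.246% of genes passed higher, but Pck2 and Slc5a1 lay below that level. Neither share is matched to the signal of the single members. Pck1, the cytosolic enzyme that commits carbon to glucose and 1 of the brightest genes on the arrays, was at 6.61, 6.64, 6.59 and 6.50 on the low-fat arrays and at 7.61, 7.45 and 6.82 on the high-fat arrays. The low-fat arrays were tight and the high-fat arrays spread, all above them, for a difference of 0.71 ± 0.18 (adjusted p = 0.0205; 0.0762 without high-fat replicate 2 and 0.0680 without high-fat replicate 1). Pck2, its mitochondrial counterpart, was dim and rose by 1.04 ± 0.16 (adjusted p = 0.00219), a value that normexp background correction brought to 0.17 (adjusted p = 0.947). Slc5a1, the glucose transporter SGLT1 of the late proximal tubule, was at -2.24, -1.83, -1.44 and -1.56 against -1.16, -0.95 and -0.45, a rise of 0.91 ± 0.25 (adjusted p = 0.0304). Slc5a10, a mannose and fructose transporter of the proximal tubule, rose by 0.47 (adjusted p = 0.0464). Slc5a2, the main glucose transporter SGLT2, did not pass (-0.25 ± 0.18, adjusted p = 0.381), and its groups overlapped. Slc5a1 did not pass without low-fat replicate 1 or 2 or high-fat replicate 2 or 3 (adjusted p up to 0.0930), and Slc5a10 passed in 1 of the 7 such fits, the one without high-fat replicate 3.

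Other energy genes moved singly. Pdk1, a kinase that holds back pyruvate dehydrogenase, rose by 0.88 ± 0.17 (adjusted p = 0.00612), and Pdha1, a subunit of that enzyme, by 0.57. Prkag1, a regulatory subunit of the energy sensor AMPK, was at 1.00, 1.14, 1.17 and 1.19 against 2.36, 1.92 and 1.82 and rose by 0.91 ± 0.14 (adjusted p = 0.00197), and Mtor rose by 0.76 (adjusted p = 0.0151), both in each fit with 1 array left out. The adiponectin receptor gene Adipor2 fell by 0.41. In glycolysis Pfkm, a phosphofructokinase, rose by 0.65, and the abundant Aldoa (-0.64) and Ldha (-0.40) fell. Of 74 respiratory chain and ATP synthase genes 1 passed, the complex III subunit Uqcrc1 (0.75 ± 0.21, adjusted p = 0.0316). A positive difference was seen in 19 of the 74. Their median was -0.11, near the -0.13 of all genes in the top 10% by signal, where the list's median level lay.

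In the marker lists of nephron segments 6 genes passed lower, all of them from the lists of principal and intercalated cells of the collecting duct. Nr3c2, the mineralocorticoid receptor through which aldosterone acts, was at -2.94, -3.30, -3.45 and -3.59 on the low-fat arrays and at -4.82, -4.30 and -5.01 on the high-fat arrays. Scnn1a, the alpha subunit of the epithelial sodium channel, was at 3.40, 2.99, 3.11 and 3.25 against 2.59, 2.46 and 2.30. Neither gene's groups overlapped. Nr3c2 fell by 1.39 ± 0.26 (adjusted p = 0.00449) and Scnn1a by 0.74 ± 0.13 (adjusted p = 0.00428), and each passed without any 1 array. Nr3c2 was dim, at percentile 20.32 of the tested genes. With normexp background correction it fell by 0.91 and Scnn1a by 0.69, and neither passed (adjusted p = 0.260 and 0.0668). Nr3c2 and Scnn1a were 2 of the 14 principal cell markers measured (14.3% lower, against 9.233% of all genes of like signal, and none higher). Of 13 intercalated cell markers 4 passed lower (30.8%, against 12.79% of all genes of like signal) and none higher. A negative difference was seen in 12 of the 13, with a median of -0.20 against -0.15 for genes of like signal. Foxi1, the transcription factor that specifies intercalated cells, was at 1.79, 1.81, 2.16 and 2.25 against 1.34, 1.07 and 1.15. It fell by 0.82 ± 0.20 (adjusted p = 0.0162; 0.0597 without high-fat replicate 2), and Hmx2, another factor of these cells, by 0.81 (adjusted p = 0.0151; 0.0542 without high-fat replicate 2). Slc26a4, the chloride-bicarbonate exchanger pendrin, fell by 0.57 (adjusted p = 0.04996), and the proton pump subunit Atp6v0d2 by 0.43 (adjusted p = 0.0413). Slc26a4 passed in 1 and Atp6v0d2 in 2 of the 7 fits with an array left out. With normexp background correction Foxi1, Hmx2, Slc26a4 and Atp6v0d2 did not pass (adjusted p = 0.0934, 0.0608, 0.192 and 0.186). The exchanger Slc4a1 (-0.11) and the pump subunit Atp6v0a4 (0.00) did not pass in the main fit. The summed level of the intercalated markers overlapped between diets, running from 6.26 to 6.39 on low-fat and from 6.14 to 6.42 on high-fat arrays. Car2, cytosolic carbonic anhydrase 2, was the 1 member with a positive difference (0.44, not passed).

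In the marker lists of the other segments 2 genes passed, both higher. None of 10 podocyte markers and none of 12 thick ascending limb markers passed (limma; 1 and 4 had an unadjusted p under 0.05), with Nphs1, nephrin, at -0.36 ± 0.18 (adjusted p = 0.204). Of 14 distal convoluted tubule markers Pvalb, the calcium buffer parvalbumin, passed: it was at 1.24, 1.79, 1.82 and 2.21 on the low-fat and 3.30, 2.84 and 2.62 on the high-fat arrays, a rise of 1.15 ± 0.25 (adjusted p = 0.0115). The list as a whole did not rise: 4 of the 14 markers had a positive difference, and their median was -0.19 against -0.09 for genes of like signal. Of 20 proximal tubule markers Slc13a3, a dicarboxylate transporter, passed (0.60, adjusted p = 0.0336). Outside these marker lists 2 tubule transport genes passed lower. Slc34a3, the phosphate transporter NaPi-2c, fell by 0.92 ± 0.24 (adjusted p = 0.0247), and Trpv6, a calcium channel, by 0.58. Slc34a3 passed in 2 of the 7 fits with an array left out, with an adjusted p up to 0.0923. Ace, the angiotensin-converting enzyme of the proximal brush border and endothelium, was at 0.03, 0.38, -0.24 and 0.57 against 3.12, 2.58 and 1.31. The high-fat arrays lay above the low-fat ones but far apart from each other, and Ace rose by 2.15 ± 0.49 (adjusted p = 0.0134; 0.0508 without high-fat replicate 2). Renin, Ren1, did not pass (-0.23 ± 0.48).

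**Figure D3:**
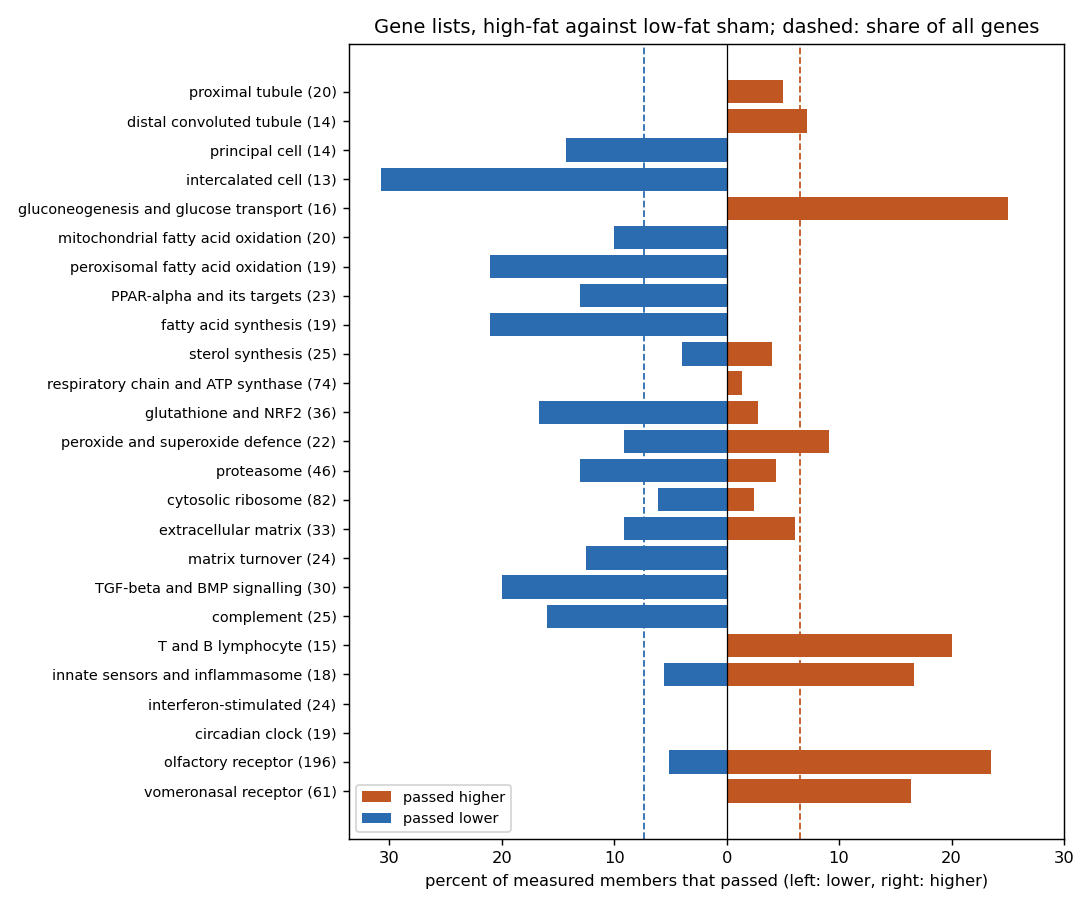
Percent of the measured members of 25 gene lists (number measured in brackets) that passed higher (right, orange) or lower (left, blue) on the high-fat diet in sham mice; dashed lines are the shares of all tested genes, 6.49% higher and 7.37% lower. The longest bars on the lower side are those of the intercalated cell (30.8%), peroxisomal and fatty acid synthesis (21.1% each) and TGF-beta lists (20.0%). On the higher side they are those of the glucose (25.0%), olfactory (23.5%) and lymphocyte lists (20.0%). Further lists also lie beyond a line, among them glutathione (16.7%), complement (16%) and principal cell (14.3%) lower, and innate sensors (16.7%) and vomeronasal receptors (16.4%) higher. The lines are not matched to the signal level of a list.

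Growth factor and matrix genes gave decreases and a few increases. Of 30 measured genes of TGF-beta and BMP signalling 6 passed lower (20.0%, against 6.297% of all genes of like signal) and none higher. Their median was 0.06 (-0.03 with normexp background correction). Bmp7, which maintains tubule epithelium and opposes TGF-beta, was at 2.97, 2.74, 2.70 and 2.95 on the low-fat and 2.50, 2.13 and 2.30 on the high-fat arrays. It fell by 0.53 ± 0.13 (adjusted p = 0.0161; 0.0679 without high-fat replicate 2), the ligand Tgfb3 by 0.70 (adjusted p = 0.0150), the receptor Bmpr1b by 1.34 and the inhibitory Smad6 by 0.57. Grem1, an antagonist of BMPs, fell by 2.37 ± 0.75 (adjusted p = 0.0494), but its low-fat values ran from -5.03 to -1.88 and the call held in 1 of the 7 fits with an array left out. Tgfb1 itself did not pass (1.00 ± 0.55, adjusted p = 0.240): it was at -1.83 to -2.08 on the low-fat arrays and at -0.04, -0.60 and -2.22 on the high-fat arrays. In the matrix list of 33 genes 3 passed lower (9.09%) and 2 higher (6.06%), near the 7.37% and 6.49% of all genes: Sparc (-0.77), Dcn, decorin (-0.81), and Col18a1 (-0.62) fell, while Col4a3 (0.95) and Col4a4 (0.43), chains of the glomerular basement membrane collagen, rose. Col1a1, the main fibrillar collagen, did not pass (-0.74 ± 0.25, adjusted p = 0.0637). Timp1, an inhibitor of matrix proteases that rises with kidney scarring, was at -0.40, -0.87, -1.05 and -1.28 against -1.99, -2.71 and -3.34, a fall of 1.78 ± 0.40 (adjusted p = 0.0117; at most 0.0399 with 1 array left out). Lox, a collagen cross-linking enzyme, fell by 1.66. Tagln, a smooth muscle protein, was at 3.83, 3.81, 3.77 and 3.70 against 2.92, 2.87 and 2.21 and fell by 1.11 ± 0.24 (adjusted p = 0.0105), and the endothelial nitric oxide synthase Nos3 fell by 0.56 ± 0.15 (adjusted p = 0.0279). The summed level of the mesangial and pericyte markers ran from 4.58 to 4.80 on low-fat and from 3.85 to 4.45 on high-fat arrays. Tagln is a bright member of that list, so the lower sum holds the fall of Tagln itself. Of the 11 markers measured 7 had a positive difference, with a median of 0.04, and 1 passed higher and 1 lower. The part of the number of these cells in the results was not tested. The injury markers Havcr1, which encodes KIM-1 (0.06 ± 0.66), and Lcn2, which encodes NGAL (-0.43 ± 0.56), did not pass and overlapped widely.

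Immune genes gave small groups of changes in both directions. Cd79b, a subunit of the B-cell receptor, was at -1.50, -1.69, -1.74 and -2.48 on the low-fat arrays and at -0.56, -0.60 and -0.86 on the high-fat arrays. It rose by 1.18 ± 0.26 (adjusted p = 0.0116), and Cd22, a B-cell inhibitory receptor, rose by 1.01, and Cd4, the coreceptor of helper T cells, by 0.62. They are 3 of 15 lymphocyte markers measured (20.0% higher, against 9.482% of all genes of like signal). A positive difference was seen in 13 of the 15, with a median of 0.62. With normexp background correction that median was 0.11. B2m, the light chain of MHC class I and an abundant transcript, was at 3.77, 3.83, 3.70 and 4.10 against 4.74, 4.39 and 4.69, a rise of 0.76 ± 0.15 (adjusted p = 0.00676) that held without any 1 array. Calprotectin, the neutrophil protein of S100a8 and S100a9, moved down. S100a8 was at 0.04, -0.26, -1.05 and -0.71 against -2.68, -2.87 and -2.59 and fell by 2.22 ± 0.34 (adjusted p = 0.00204), and S100a9 fell by 1.95 ± 0.35 (adjusted p = 0.00402). Elane, neutrophil elastase, rose by 0.77. The summed level of the neutrophil list was lower on each high-fat array (0.71 to 0.96 against 1.57 to 2.43), and without S100a8 and S100a9 it was higher (-0.45 to 0.08 against -0.77 to -0.55). The lymphocyte sum ran from 1.42 to 1.70 on low-fat and from 1.85 to 2.34 on high-fat arrays, and the part of cell numbers in these results was not tested. None of 24 interferon-stimulated genes and none of 16 macrophage and dendritic cell markers passed (limma; 0 and 2 had an unadjusted p under 0.05), and the chemokine Ccl2 did not (0.11 ± 0.41). Among innate sensors Tlr3 (1.59) and Tlr7 (0.92) rose and the inflammasome adaptor Pycard fell (-0.64). Tlr3, Tnf (1.28) and Cxcl1 (1.82) were dim: with normexp background correction their values were 0.34, -0.05 and 0.64, with adjusted p of 0.894, 0.987 and 0.683. Of 25 complement genes 4 passed lower (16%, against 9.233% of all genes of like signal) and none higher. Among the 4 was C4b (-0.85, adjusted p = 0.0249), which passed in 4 of the 7 fits with an array left out (adjusted p up to 0.105).

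Markers of other tissues differed between the diets and between mice. Leaving out Pck1, which the proximal tubule makes, the summed level of 11 adipocyte markers was at 4.75, 5.08, 4.80 and 5.47 on the low-fat arrays and at 3.49, 3.73 and 4.46 on the high-fat arrays. High-fat replicate 3 lay nearest to the low-fat range. Adipoq, adiponectin, was at -1.09, -0.39, -0.08 and 1.17 against -3.89, -2.72 and -0.23, and Cfd, adipsin, at 1.09, 2.51, 2.02 and 2.88 against -1.81, -2.19 and 1.69. The groups overlapped in both, Cfd passed (-2.90 ± 0.84, adjusted p = 0.0364; 0.148 without high-fat replicate 2) and Adipoq did not (-2.18 ± 0.95, adjusted p = 0.137). Plin4, a lipid droplet protein, fell by 2.00 ± 0.52 (adjusted p = 0.0231), while the fat cell genes Cidec, Retn and Plin1 did not pass. Without high-fat replicate 3 Adipoq, Cidec, Retn and Plin1 all passed. Car3 is a member of the adipocyte list as well as a gene named above. The lower adipocyte sum on the high-fat arrays therefore holds the fall of Car3 itself, and no sum without Car3 was taken. For Car3 high-fat replicate 3 (1.75) lay by high-fat replicate 2 (1.73), and Adipoq was higher on replicate 3 than on replicate 2. The part of fat tissue in the Car3 result was not tested. Of 21 hepatocyte markers 15 had a negative difference and 2 passed, in opposite directions. Fetub, fetuin B, was at 0.03, -0.84, -1.02 and -1.43 against -3.22, -4.22 and -4.14 (-3.05 ± 0.34, adjusted p = 0.000332), and Ttr, transthyretin, was at 1.45, 2.48, 1.69 and 2.54 against 3.47, 3.78 and 4.07 (1.73 ± 0.24, adjusted p = 0.00177). Alb, albumin, did not pass (-0.14 ± 0.59). The 9 measured major urinary protein genes, which share near-identical sequence and so cannot be told apart with confidence, all had a negative difference (median -4.02) and none passed (limma; 6 had an unadjusted p under 0.05). Low-fat replicate 1 was high among its group, with Mup3 at -0.67 against -3.41, -3.88 and -5.62 on the other low-fat arrays.

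**Figure D4:**
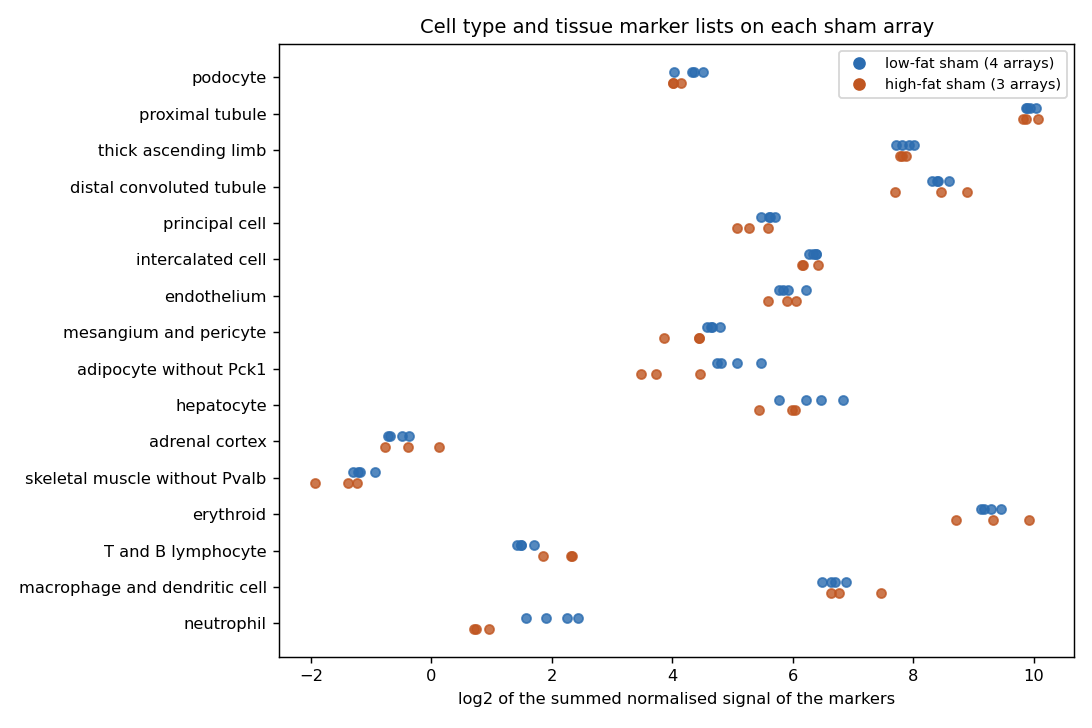
Log2 of the summed normalised signal of 16 marker lists on each of the 4 low-fat (blue) and 3 high-fat (orange) sham arrays. The adipocyte list without Pck1, the mesangium and pericyte list and the neutrophil list lie lower on every high-fat than on every low-fat sham array, and the lymphocyte list lies higher. The lower sums include genes named as lower in the text: Car3 (adipocyte), Tagln (mesangium and pericyte), and S100a8 and S100a9 (neutrophil). Without S100a8 and S100a9 the neutrophil sum was higher on every high-fat array (-0.45 to 0.08 against -0.77 to -0.55).

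The abundant genes that rose were fewer, 36 in the top 10% by signal. Raver1, a cofactor of RNA splicing, was at 4.41, 4.58, 4.37 and 4.57 on the low-fat arrays and at 6.37, 5.81 and 5.02 on the high-fat arrays. Its rise of 1.25 ± 0.32 (adjusted p = 0.0215) was not passed without low-fat replicate 3 or high-fat replicate 1 or 2 (adjusted p up to 0.0762). Rab5c, a small GTPase of early endosomes, was at 4.13, 3.62, 3.72 and 3.93 against 4.75, 4.66 and 4.60. Its groups did not overlap and it rose by 0.82 ± 0.14 (adjusted p = 0.00330). Thnsl2, a threonine synthase-like enzyme, rose by 0.96 ± 0.17 (adjusted p = 0.00408) and Eef1a1, the translation elongation factor, by 0.71 (adjusted p = 0.00775), and Thnsl2, Rab5c and Eef1a1 passed without any 1 array. Tkfc (0.96), which phosphorylates dihydroxyacetone and glyceraldehyde from fructose, Rab11b (0.90), Atp6v0b (0.76), the carboxylesterase Ces1d (0.76) and Ypel3 (0.70) also rose, each losing its call in 5 or 6 of the 7 fits with an array left out. Genes of the protein machinery passed lower about as often as genes of like signal, or less often. Of 82 cytosolic ribosomal protein genes 5 passed lower (6.1%, against 7.37% of all genes and 11.92% in the top 10% by signal), among them Rps18 (-0.91 ± 0.15, adjusted p = 0.00259) and Rpl22l1 (-0.73), and 2 higher. Of 46 proteasome genes 6 passed lower (13%, against 12.79% of all genes of like signal), among them Psma7 (-0.86) and Psmg3 (-0.72), and 2 higher. Ribosomal protein genes have many near-identical pseudogene copies, so their values are uncertain. Of 28 genes of the endoplasmic reticulum stress list 2 passed, both lower (7.14%, against 7.37% of all genes). Ern1, the endoplasmic reticulum stress sensor IRE1, fell by 1.18 ± 0.17 (adjusted p = 0.00191) and Asns, asparagine synthetase, by 1.11 ± 0.23 (adjusted p = 0.00782), and none of 19 clock genes passed (limma; 1 had an unadjusted p under 0.05).

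Several of the larger increases belonged to genes at the edge of detection. Clic6, a chloride channel protein of secretory epithelia, was at -7.11, -5.78, -5.58 and -5.25 on the low-fat arrays and at -1.69, -2.61 and -3.12 on the high-fat arrays, and was well above background on 1 of 4 and 3 of 3. Hes5, a target of Notch, was at -7.06, -6.18, -7.13 and -7.54 against -2.40, -3.70 and -4.60, and Gsx2, a forebrain homeobox factor, at -6.21, -6.59, -6.15 and -6.85 against -3.90, -2.79 and -2.88. Hes5 and Gsx2 were well above background on none of the 4 low-fat sham arrays, and measured against a floor, Clic6 was at least 7.91-fold, Gsx2 at least 5.47-fold and Hes5 at least 4.21-fold higher. The floor of an array was its dimmest signal that counted as well above background, or the probe's own signal where that was brighter. With normexp background correction their differences were 1.26, 1.09 and 0.76 and none passed (adjusted p = 0.243, 0.360 and 0.716). Heyl, another Notch target, moved the other way at a measurable level, from between -1.89 and -1.19 to between -2.72 and -2.40 (-1.06 ± 0.19, adjusted p = 0.00356). Of 1070 olfactory receptor genes with a named probe 196 were measured, chosen by the filter on dim signal; 46 of the 196 passed higher (23.5%) and 10 lower (5.1%), and their median level was at percentile 6.11 of the tested genes. Vomeronasal receptors passed higher in 10 of 61 measured genes (16.4%). Of all genes in the bottom 10% by signal 13.84% passed higher. With normexp background correction both list medians changed sign, from 0.34 to -0.21 for the olfactory and from 0.41 to -0.20 for the vomeronasal receptors. These receptors belong to sensory neurons and share much sequence within families. The high-fat sham arrays also had more spots well above background. The part of the detection rate in their rise was not tested.

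A smaller set passed when the grouping of arrays on slides entered the fit. The 14 genes that passed with the slide as a random block (correlation within a slide 0.4064) were Car3, lower, and 13 that were higher. They are named because they passed there, after their values were seen. Of the 13, Csk (1.80 with the block; a kinase that restrains Src-family kinases), Mcoln3 (1.57; a lysosomal cation channel), Zfr (1.30), Zfp267 (0.84) and Casp14 (2.52; a caspase of the epidermis) were well above background on each of the 7 sham arrays. Csk was at -3.52, -3.43, -3.42 and -3.23 on the low-fat arrays and at -1.34, -1.59 and -1.97 on the high-fat arrays, a rise of 1.77 ± 0.15 (adjusted p = 7.56e-05 without the block). The other 8 were dim on the low-fat sham arrays. Pcdhb12 was well above background on 2 of the 4, and Speer4d, Gsx2, Olfr339, 4930474G06Rik, Hspa12a, Dpf1 and Spata18 on none. With normexp background correction Speer4d (1.04), Gsx2 (1.09), Olfr339 (1.16) and 4930474G06Rik (0.35) did not pass (adjusted p = 0.423, 0.360, 0.277 and 0.912). Car3 passed there (-1.50, adjusted p = 0.0157). Each slide held 1 diet, so this block widens the error for arrays that share a slide and does not separate scan day from diet. Apart from the slide, 744 of the 2221 genes (368 higher and 376 lower) passed with the same sign in each fit that left out 1 sham array and under quantile, cyclic loess, array median, percentile mean and value table scaling. In the top 10% by signal these were 53 lower and 5 higher: Thnsl2, Rab5c, B2m, Eef1a1 and Eci3, an isomerase of fatty acid oxidation, the last named after its values were seen (0.68, adjusted p = 0.00612).

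In mice with 1 kidney, which share no array with the sham comparison but share its scan days, 2275 genes (14.2%) passed between the diets, 7.68% of genes higher and 6.51% lower. Of the sham genes that passed, 755 also passed higher and 662 also passed lower there, and none passed in the opposite direction. Car3 fell by 1.73 there (adjusted p = 4.56e-05), Gstm1 by 1.11, Gclc by 1.24 and Angptl4 by 1.02, and Pck1 rose by 1.09. Some sham results had smaller values in mice with 1 kidney: Tagln (-0.40), Timp1 (-0.68), Mt2 (-0.23) and Adipoq (0.36 against -2.18) did not pass there. No gene passed the test of the difference between the 2 diet effects (limma, adjusted p), and 218 had an unadjusted p under 0.05. The lowest of these belonged to Aim2, a sensor of cytosolic DNA, with 1.55 in sham mice and -0.37 in mice with 1 kidney (adjusted p = 1.00 for the difference); it was above background on none of the 4 low-fat sham arrays, and normexp correction gave -0.12 in sham mice. No sham result above is therefore shown to be particular to mice with both kidneys.

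**Figure D5:**
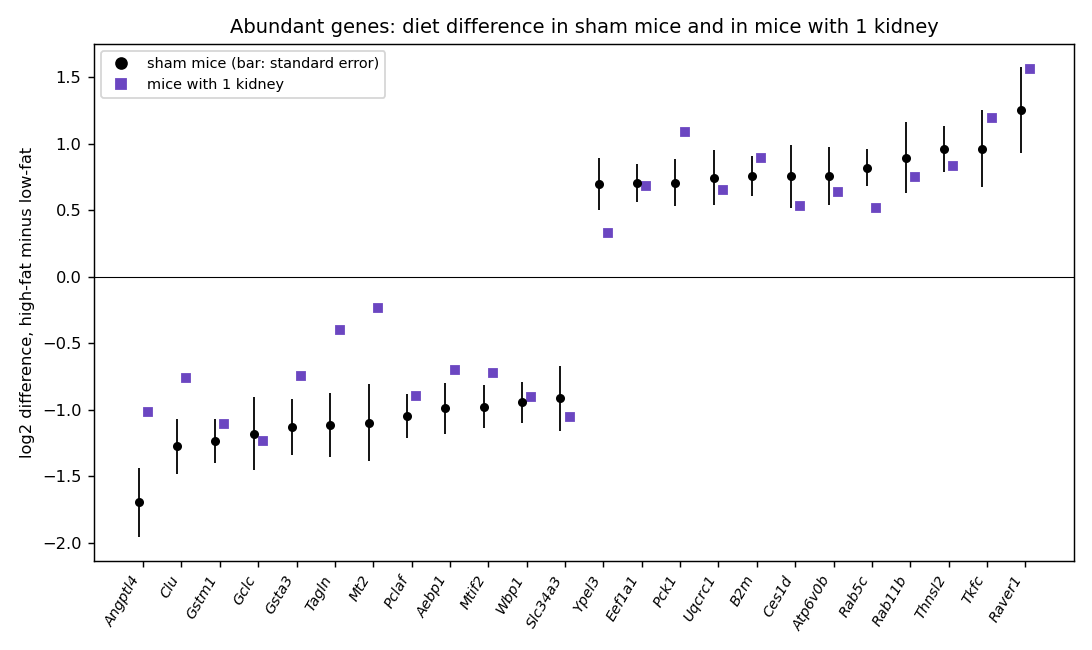
Log2 difference, high-fat minus low-fat, of the 12 most lowered and 12 most raised genes among the top 10% by signal that passed in sham mice, with standard errors for sham mice (black) and the value in mice with 1 kidney (purple squares). The sham values chose these genes; the 1-kidney value has the same sign for all 24, from -0.23 for Mt2 to -1.24 for Gclc among the lowered genes.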

How the data were processed

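Per the labels' protocols, 100 ng of total RNA from frozen kidney was amplified, given the Cy3 dye and read on 1-colour Agilent arrays, 1 per mouse. The deposited spot intensity was made by the authors with Feature Extraction (version 10.7.3.1 per the file headers), which subtracted background. The deposited value table holds the same signal (ratio 0.995 to 1.005) and served as an alternative.

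Outlier spots were dropped and log2 signal was taken minus the array's 75th percentile. Of 39429 probes 27234 were named through RefSeq accessions (GRCm38.p6, names and promoter sequences only). Probes well above background on at least 3 of the 15 arrays were kept, and the brightest probe stood for a gene. limma 3.58.1 (R 4.3.3) was fitted to all 15 arrays with 1 mean per group, with Benjamini-Hochberg adjustment over all genes and a threshold of 0.05, and was tested on simulated data. P-values of this fit measure the spread between arrays within groups, with the mice with 1 kidney included. They take the arrays as independent, although the correlation within a slide was 0.4064, and hold no measure of the spread between scan days.

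Members and lists were chosen with earlier results of these data known. Named genes were the 12 highest and 12 lowest differences among non-overlapping genes and among the top 10% by signal, up to 4 passed members per list (all where at most 6 passed), a fixed panel, and list members needed to say which did not pass. Mt1, Mt3, Cyp4a10, Cyp4a14, Pdk4, Adipoq, Cidec, Plin1, Retn, Hmox1, Mgst3, Tkt, Alb, Mup3, Eci3 and the genes named for the slide block were added after their values were seen. Alternatives were other scalings, filters, probe summaries, blocks, weights and arrays left out; normexp was run on the median spot signal where the mean had been planned. Some genes of the panel and lists are not reported here.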

Additional observations from a re-analysis of the deposited data

Results flagged for a closer look

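Single low-fat sham arrays stood apart from the other 3 of their group for 10 of 141 genes named in the report and for 0 of 16 marker lists, by the gap to the nearest array divided by the group's range (Dixon's 95% critical value for 4 arrays). Chance alone gives about 1 in 20 such groups. Low-fat replicate 1 was apart for Aim2 (0.953), at -6.63 with the others between -7.98 and -7.92, for Bmpr1b (0.917), at -1.84 against -2.55 to -2.49, for Mt2 (0.843), at 5.93 against 4.99 to 5.14, and for Cyp4a10 (0.836), at 4.43 against 5.68 to 5.92. Low-fat replicate 2 was apart for Cd4 (0.967), Ppara (0.928) and Aldoa (0.857), replicate 3 for Pdk1 (0.911) and Rps18 (0.874), and replicate 4 for Nos3 (0.858). Without the array that stood apart Bmpr1b, Mt2, Cd4 and Ppara did not pass (adjusted p = 0.0668, 0.0601, 0.0983 and 0.102), and Aim2, Aldoa, Pdk1, Rps18 and Nos3 passed.

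Of 7156 kept probes with no gene name here, 487 passed higher (6.81%) and 333 lower (4.65%) on the high-fat sham arrays. They entered none of the counts of genes.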

How the results depend on the processing

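The 2221 genes became 1417 (693 higher and 724 lower) with the array median as scale, 195 (60 and 135) with normexp, 4850 (3626 lower) with no filter on dim probes, 1184 (584 and 600) on the 7 sham arrays alone, 14 (13 and 1) with the slide as a random block, 584 (308 and 276) at an adjusted p under 0.01 and 1401 (382 higher) among the 8016 genes of higher signal, an alternative chosen after seeing the data. Higher genes were 46.8% of those that passed, against 30.8% with normexp, 25.2% with no filter and 27.3% in those 8016 genes. The median of all genes moved from -0.02 to -0.11 with normexp and -0.13 with no filter. Leaving out 1 sham array gave 1207 to 2381 genes (575 to 1304 higher, 596 to 1156 lower) and 0 to 1 for the difference between surgeries, the 1 without low-fat replicate 1. In mice with 1 kidney 2275 became 328 with normexp, 3596 with no filter, 26 with the slide block, 5746 with array weights, 781 at 0.01 and 1246 among the 8016 genes. Quantile (2440), cyclic loess (2487), value table (2230), mean of probes (1803), trended prior (2303) and array weights (2986) stayed within 1.5 times of the sham count.

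Of the 2221 genes 154 had the opposite sign with normexp and 26 with the mean of probes. Among named genes the sign turned with normexp for Aim2 (-0.12), Tnf (-0.053), Vmn1r63 (-0.10) and Vmn2r85 (-0.17), and with the mean of probes for Atp2b4 (-0.002), Decr1 (0.022) and Gstm3 (-0.31); the cause was not tested. Of 189 named genes that passed, 76 passed without any 1 array, 27 with normexp and 5 with the slide block.

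The replicate numbers are shared by the groups but same-numbered sham arrays did not deviate together (correlations 0.0395, 0.08 and -0.0993). With the replicate number as a block 1790 genes passed (886 higher, 904 lower). Scan day could not be entered, since it coincided with diet.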
